A study of Homo sapiens with 12 samples.

Results

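Cortisol acts on the cells that make it through the same receptor that other tissues use. The 10 genes described here were listed by name: the receptors NR3C1 and NR3C2, the cortisol-converting enzymes HSD11B1 and HSD11B2, and the target genes FKBP5, TSC22D3, PER1, DUSP1, SGK1 and KLF9. All 10 were found among the 60662 genes of the table. They were read in NCI-H295R, a human adrenocortical carcinoma line that secretes cortisol into its medium. Confluent cultures had no serum for 12 h and were then given vehicle (VEH, 0.1% DMSO), 30 µM CJ28 or 30 µM metyrapone (MET) for 24 h, with 4 samples per group and no other treatment in any group. CJ28 is a benzimidazolylurea from the authors' laboratory, and MET is a clinical inhibitor of 11β-hydroxylase. Both compounds act on cortisol output, which the study measured in the medium and which is not analysed here. The comparison asks whether lower output shows in glucocorticoid-responsive RNAs of the same cells. No group received a glucocorticoid or a receptor antagonist, so how far these genes respond to cortisol in this line was not measured.

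The glucocorticoid receptor, encoded by NR3C1, waits in the cytoplasm in a complex of HSP90 chaperones and co-chaperones. Once it binds cortisol it enters the nucleus and sits on DNA elements made of a pair of inverted half-sites, from which it raises genes such as FKBP5 and TSC22D3. The mineralocorticoid receptor, NR3C2, binds cortisol as well as aldosterone. HSD11B1 regenerates cortisol from cortisone, and HSD11B2 inactivates cortisol and so shields the mineralocorticoid receptor. Several of these targets also answer to other signals, among them cyclic AMP, cell stress and the circadian clock.

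The response element was looked for as the letters GNACANNNTGTNC, which read the same on both strands. The search covered 5 kb on either side of each RefSeq start on GRCh38.p14. RefSeq starts were found for 9 of the 10 genes, 24 starts in all, and HSD11B2 was not among them. Sites lay within reach of 5 of these 9 genes and of 11 of the 24 starts, against 13.4% of all 27305 genes and 12.3% of all 35116 starts. Starts of a gene share windows, and textbook targets were chosen for their elements, so these shares only describe the genes. In the 300-base windows right at the starts there was no match for the 24, against 0.390% of all starts. At so low a share, 24 starts could not show a lack. The 6 sites outside exons are shown because they mark where receptor-type letters lie beside FKBP5, SGK1, PER1 and NR3C2; the matching letters are in capitals and each is written 5′ to 3′ on the minus strand, on which all 4 genes lie.
FKBP5, 3442 bases before the nearest start, outside any gene, chr6:35732019-35732031: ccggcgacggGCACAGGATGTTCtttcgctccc
FKBP5, 463 bases after the nearest start, in an intron, chr6:35728114-35728126: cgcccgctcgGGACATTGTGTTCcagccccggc
FKBP5, 1151 bases after the nearest start, in an intron, chr6:35687758-35687770: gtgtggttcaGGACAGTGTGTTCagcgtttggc
SGK1, 1165 bases before the nearest start, in an intron of a longer form, chr6:134176025-134176037: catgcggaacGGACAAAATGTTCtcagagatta
PER1, 2063 bases before the nearest start, in an intron of a longer form and in the overlapping gene ENSG00000263620, chr17:8154461-8154473: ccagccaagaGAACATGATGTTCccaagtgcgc
NR3C2, 895 bases after the nearest start, in an intron, chr4:148443797-148443809: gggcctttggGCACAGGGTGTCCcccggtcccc
The PER1 site was the only one of the 8 sites found in which both half-sites read GAACA, and the other 2 sites lay in exons of SGK1 and TSC22D3. No match was found beside NR3C1, HSD11B1, DUSP1 or KLF9.

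The deposited values are TPM, a gene's share of all transcripts after correction for length, given to 2 decimals, from which the read depth behind a value cannot be recovered. Each sample had between 29463 and 31016 genes above 0. Log2(TPM + 0.1) was compared by limma over the 16815 genes with at least 0.5 TPM in at least 4 of the 12 samples, and a gene was called at an adjusted p under 0.05. Fold changes on this scale understate changes of low genes, and p-values measure the spread between these cultures, which may be technical. The median log2 change of all genes tested was -0.13 from VEH to CJ28 and 0.014 after median-of-ratios scaling, so a scaled value is given beside the CJ28 to VEH change of each listed gene that passed the filter. For other genes, and for CJ28 against MET, it is given where it moves a called value by over 1.5 times or changes the call. Of the genes called, 65.1% were lower in CJ28 before and 47.4% after that scaling. As for the cell type, 10 of 11 adrenocortical markers passed the filter. CYP11B1, the 11β-hydroxylase that MET blocks, had a group mean of at most 0.0175 TPM. The 11 markers summed to 434 to 457 TPM in VEH, 422 to 437 in MET and 261 to 321 in CJ28. SCARB1, a lipoprotein receptor and the most abundant of them, had 142 ± 11.8 TPM in VEH and 164 ± 23.6 in CJ28 (SD, n = 4), a log2 change of 0.20 (adjusted p = 0.0672 in limma; scaled log2 0.35, adjusted p = 0.00185). The others summed to 294 to 304 TPM in VEH, 291 to 306 in MET and 121 to 128 in CJ28, a split made after the values were seen. The part of these markers in the results below was not tested. In bulk RNA, fewer cells of a type and less RNA per cell cannot be told apart. Among 15 markers of mesenchymal, endothelial, immune and medullary cells, the sum was 1.42 to 2.56 TPM in VEH, 1.39 to 2.06 in MET and 0.76 to 1.24 in CJ28. Only CHGA of these passed the filter, and it was lower in CJ28 (log2 -0.51, adjusted p = 0.0278; 0.0932 after scaling), while CD3E and TH were listed at 0 throughout.

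**Figure D1:**
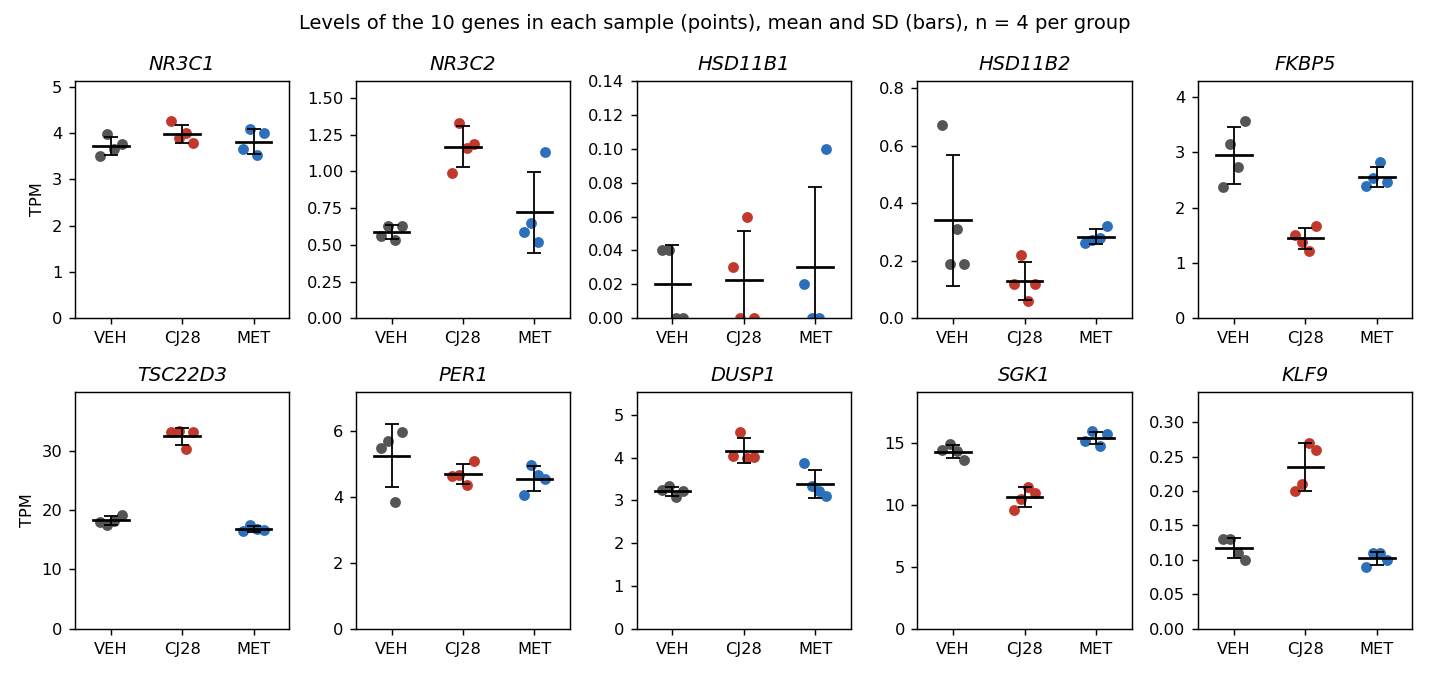
TPM (linear axis from 0, a scale of its own for each gene) of the 10 genes in VEH, CJ28 and MET; points are samples, horizontal lines group means and bars SD (cut at 0), n = 4 per group. TSC22D3 sat at 30.32 to 33.23 TPM in CJ28 against 16.40 to 19.23 in the other 8 samples, and FKBP5 at 1.22 to 1.66 against 2.37 to 3.56.

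The mineralocorticoid receptor gene rose with CJ28, and the glucocorticoid receptor gene differed little between groups. NR3C1 (ENSG00000113580.15, chromosome 5, 143277931 to 143435512 on GRCh38) had 3.51, 3.97, 3.66 and 3.76 TPM in VEH, 4.25, 3.90, 3.99 and 3.78 in CJ28 and 3.65, 4.08, 3.53 and 3.99 in MET. The 3 groups overlapped, and the VEH mean of 3.73 ± 0.193 TPM (SD, n = 4 here and below) lay above 32.4% of the protein-coding genes tested. The log2 change from VEH to CJ28 was 0.093 (95% interval -0.050 to 0.24, adjusted p = 0.249 in limma). After scaling it was 0.24 with an adjusted p of 0.00498, so whether NR3C1 counts as called turns on the scaling.

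NR3C2 (ENSG00000151623.15, chromosome 4, 148078762 to 148444698) had 0.56, 0.63, 0.53 and 0.63 TPM in VEH, 0.99, 1.33, 1.16 and 1.19 in CJ28 and 0.59, 0.65, 0.52 and 1.13 in MET. Every CJ28 sample was above every VEH sample, and the MET group held 1 sample at the level of CJ28. The rise from 0.588 ± 0.0506 to 1.17 ± 0.140 TPM was 1.84-fold (95% interval 1.37 to 2.47; log2 0.88, standard error 0.20, adjusted p = 0.00206; scaled log2 1.01). At this low level the pseudocount decides the size, and with a pseudocount of 1 the log2 change was 0.45.

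The enzymes that interconvert cortisol and cortisone were both below the filter. HSD11B1 (chromosome 1, 209686178 to 209734949) was listed at 0 in 6 of 12 samples and reached at most 0.10 TPM, in MET-4. HSD11B2 (chromosome 16, 67430652 to 67437553) had 0.67, 0.19, 0.31 and 0.19 TPM in VEH, 0.12, 0.22, 0.06 and 0.12 in CJ28 and 0.26, 0.27, 0.28 and 0.32 in MET. All CJ28 samples of HSD11B2 lay below all MET samples. The CJ28 and VEH samples of HSD11B2 overlapped, and in a fit over all 40973 genes above 0 its log2 change was -0.86 (adjusted p = 0.0812). From MET to CJ28 the log2 change in that fit was -0.78 (adjusted p = 0.120 in limma), so neither difference was called. H6PD, which supplies the cofactor of HSD11B1, was measurable and fell with CJ28, from a VEH mean of 3.35 ± 0.216 TPM to 2.20 ± 0.0810 (log2 -0.59, adjusted p = 5.05e-06).

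FKBP5 and SGK1 fell with CJ28. FKBP5 (ENSG00000096060.14, chromosome 6, 35573585 to 35728583), a co-chaperone that lowers the receptor's affinity for its hormone, had 2.37, 3.15, 2.73 and 3.56 TPM in VEH, 1.51, 1.38, 1.22 and 1.66 in CJ28 and 2.40, 2.53, 2.82 and 2.46 in MET. The CJ28 samples were the lowest 4 of the 12, and MET lay inside the range of VEH. The mean went from 2.95 ± 0.515 to 1.44 ± 0.187 TPM, to 0.508 of VEH (95% interval 0.421 to 0.613; log2 -0.98, standard error 0.13, adjusted p = 2.58e-05; scaled log2 -0.83).

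SGK1 (ENSG00000118515.11, chromosome 6, 134169246 to 134318112), a kinase that promotes sodium uptake in epithelia, had 14.40, 14.88, 14.33 and 13.62 TPM in VEH, 9.59, 10.50, 11.47 and 10.93 in CJ28 and 15.19, 15.93, 14.78 and 15.70 in MET. All CJ28 samples were below all others. The mean fell from 14.3 ± 0.519 to 10.6 ± 0.795 TPM, to 0.743 of VEH (95% interval 0.685 to 0.806; log2 -0.43, adjusted p = 2.33e-05). After scaling the log2 change was smaller, -0.28 (adjusted p = 0.00178).

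TSC22D3 and DUSP1 rose with CJ28, opposite to FKBP5 and SGK1. TSC22D3 (ENSG00000157514.16, chromosome X, 107713221 to 107777342) encodes GILZ, a leucine zipper protein that carries anti-inflammatory actions of glucocorticoids. Its values were 17.97, 17.56, 18.21 and 19.23 TPM in VEH, 33.08, 33.23, 30.32 and 33.05 in CJ28 and 16.40, 17.45, 16.81 and 16.56 in MET. The 3 groups did not overlap, with CJ28 highest and MET lowest. From VEH to CJ28 the mean rose from 18.2 ± 0.711 to 32.4 ± 1.40 TPM, 1.77-fold (95% interval 1.66 to 1.89; log2 0.83, standard error 0.042, adjusted p = 5.13e-09; scaled log2 0.98). With 76.7% of tested protein-coding genes below it in VEH, it was the most abundant of the 10 genes.

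DUSP1 (ENSG00000120129.6, chromosome 5, 172768096 to 172771195), a phosphatase that switches off MAP kinases, had 3.24, 3.33, 3.08 and 3.22 TPM in VEH, 4.05, 4.60, 4.00 and 4.01 in CJ28 and 3.87, 3.34, 3.22 and 3.11 in MET. CJ28 was above both other groups, although MET-1 came close. The mean rose from 3.22 ± 0.103 to 4.17 ± 0.291 TPM, 1.28-fold (95% interval 1.15 to 1.44; log2 0.36, adjusted p = 0.00129; scaled log2 0.51).

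PER1 was not called, and KLF9 was too low to test in the filtered table. PER1 (ENSG00000179094.16, chromosome 17, 8140472 to 8156506), a repressor of the circadian clock, had 5.49, 5.68, 3.85 and 5.97 TPM in VEH, 4.63, 4.66, 4.37 and 5.09 in CJ28 and 4.06, 4.95, 4.66 and 4.53 in MET. VEH-3 was the lowest of all 12 samples and the other VEH samples the highest 3. The log2 change from VEH to CJ28 was -0.14 (95% interval -0.40 to 0.12, adjusted p = 0.331). Without VEH-3 it was -0.28 with an adjusted p of 0.00844, whereas after scaling of all samples it was 0.0076, so neither a fall nor a constant level can be claimed for PER1. KLF9 (ENSG00000119138.4, chromosome 9, 70384597 to 70414624), a Krüppel-like factor, had 0.13, 0.13, 0.11 and 0.10 TPM in VEH, 0.20, 0.21, 0.27 and 0.26 in CJ28 and 0.09, 0.11, 0.11 and 0.10 in MET. CJ28 did not overlap with VEH, and in the fit over all genes above 0 the log2 change was 0.62 (adjusted p = 0.0154), at levels of 0.27 TPM or less.

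Among the 10 genes, 7 passed the filter and 5 of these were called between CJ28 and VEH, against 57% of all genes tested. Higher in CJ28 were 3 of the 7, where the whole table had 19.9%, and lower were 2, where it had 37.1%. The samples of both groups did not overlap for the same 5 genes, against 50.3% of all genes. After scaling 4 were higher and 2 lower, with 29.3% and 26.3% in the table. Among the 5 target genes tested 2 rose, 2 fell and 1 was not called.

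**Figure D2:**
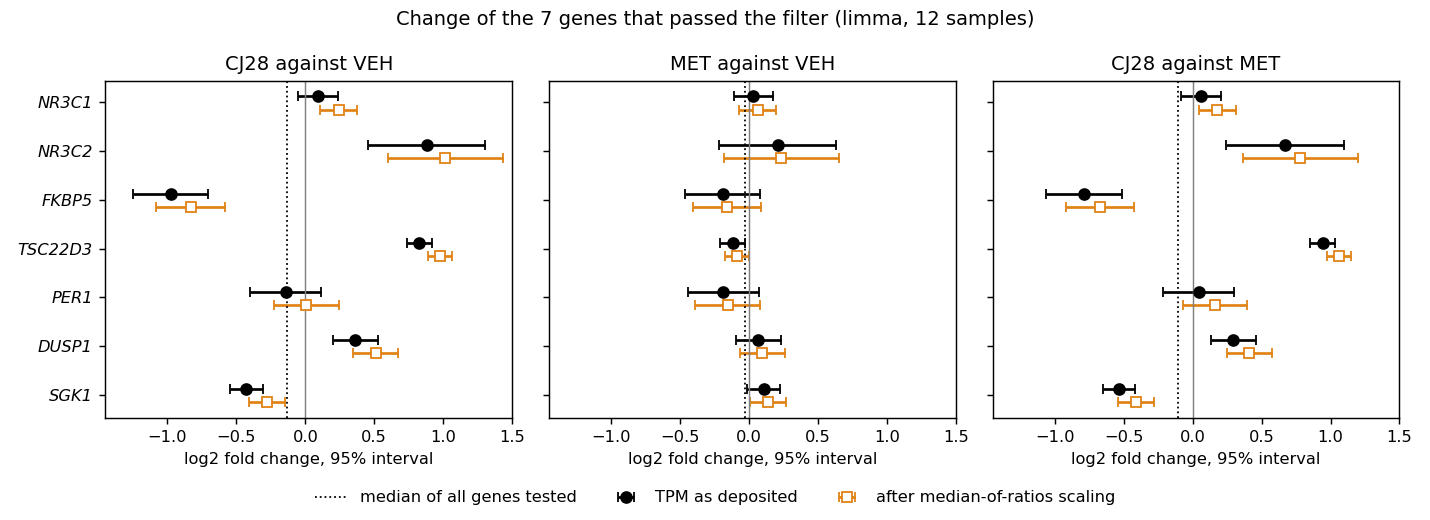
Log2 fold changes with 95% intervals (horizontal axis) of the 7 genes that passed the filter, from limma, as deposited (filled circles) and after median-of-ratios scaling (open squares); the dotted line is the median of all genes tested. With CJ28, FKBP5 and SGK1 lie left and NR3C2, TSC22D3 and DUSP1 right of 0 on both scales, while with MET all 7 points lie between -0.19 and 0.21 as deposited.

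MET left no called change in the 10 genes. Of the 7 tested, 0 had an adjusted p under 0.05 in limma and 1 an unadjusted p under 0.05, or 2 after scaling. Of all 16815 genes tested, a single one was called, the histone gene H4C12, or 0.00595%, with 874 genes at an unadjusted p under 0.05. Among the 7, the gene with an unadjusted p under 0.05 as deposited was TSC22D3, which did not pass the adjustment. Its mean was 16.8 ± 0.462 TPM in MET and 18.2 ± 0.711 in VEH (log2 -0.12, adjusted p = 0.933), and all 4 MET samples were below all 4 VEH samples. Groups without overlap made up 2.81% of all genes in this comparison and 1 of the 7 here.

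The intervals, each for a single gene and not adjusted for the number of genes tested, bound what MET could have done. For FKBP5 the ratio of MET to VEH was 0.877 with a 95% interval from 0.726 to 1.06, so a level as low as 0.726 of VEH was within reach, whereas the interval with CJ28 ended at 0.613. For PER1 the interval was 0.735 to 1.05, for TSC22D3 0.866 to 0.982, for SGK1 0.991 to 1.17 and for DUSP1 0.935 to 1.17. For the receptors it was 0.925 to 1.13 in NR3C1 and 0.860 to 1.55 in NR3C2, where MET-4 stood apart at 1.13 TPM. Without that sample the log2 change of NR3C2 was -0.0032 in place of 0.21. Without VEH-3 the log2 change of PER1 was -0.32 in place of -0.19 (adjusted p = 0.705 in limma). The median log2 change of all genes was -0.026 with MET. After scaling, the log2 interval of SGK1 was 0.0052 to 0.27 (adjusted p = 0.988 in limma).

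At the same dose and time, CJ28 and MET differed in 5 of the 7 genes, against 55.5% of all genes tested. The 7 differences were tested in the same limma fit with adjustment over all genes, and 62.3% of all genes called were lower in CJ28, or 47.7% after scaling. TSC22D3 was 1.92-fold higher in CJ28 than in MET (95% interval 1.81 to 2.05, adjusted p = 1.60e-09), NR3C2 1.59-fold (1.19 to 2.14, adjusted p = 0.0112; log2 0.67, or 0.34 with a pseudocount of 1) and DUSP1 1.23-fold (1.09 to 1.37, adjusted p = 0.00516). That made 3 higher of 7, with 20.9% in the table. FKBP5 in CJ28 was 0.579 of MET (0.480 to 0.700, adjusted p = 1.65e-04) and SGK1 0.691 of MET (0.636 to 0.750, adjusted p = 3.43e-06), so 2 of 7 were lower, with 34.6% in the table. Samples did not overlap in 4 of the 7, since MET-4 lay inside the CJ28 range of NR3C2, against 50.2% of all genes. For NR3C1 (ratio 1.04, 0.945 to 1.15) and PER1 (1.03, 0.861 to 1.23) no difference was called, although NR3C1 passed after scaling (log2 0.18, adjusted p = 0.0255).

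Of 16 chaperone genes of the HSP90 cycle, which holds the receptor ready, 9 fell and 3 rose with CJ28. That was 56.2% lower and 18.8% higher, where all genes tested had 37.1% and 19.9%, and the median log2 change was -0.46 against -0.13 over all genes. After scaling 9 were lower and 4 higher, with 26.3% and 29.3% in the table. The median of the 16 was then -0.30. HSPA8, the constitutive HSP70, fell from a VEH mean of 382 ± 8.28 TPM to 165 ± 8.31 (log2 -1.21, standard error 0.035). HSP90AA1 fell from 101 ± 16.3 to 50.0 ± 6.85 TPM (log2 -1.01), and the HSP40 genes DNAJB1 and DNAJA1 by 0.73 and 0.67 on the log2 scale. FKBP4, which competes with FKBP5 for HSP90 and helps carry the receptor to the nucleus, rose from 36.1 ± 2.03 to 41.0 ± 0.945 TPM (log2 0.18, adjusted p = 0.00213; scaled log2 0.34). These genes have processed copies with which RSEM could have divided reads. In MET none of the 16 was called, and 0 had an unadjusted p under 0.05.

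Coactivators and corepressors moved both ways. Of 14, 3 rose and 5 fell with CJ28 (5 and 3 after scaling), or 21.4% higher and 35.7% lower, close to the 19.9% and 37.1% of all genes tested. After scaling, all genes tested had 29.3% higher and 26.3% lower. The median log2 change of the 14 was -0.037 before scaling. PPARGC1A, a coactivator of oxidative metabolism, rose from 1.35 ± 0.119 to 3.64 ± 0.428 TPM (log2 1.37). NCOA2, a p160 coactivator of steroid receptors, rose from 10.7 ± 0.918 to 14.7 ± 0.798 TPM (log2 0.46), while the remodelling ATPase SMARCA4 (log2 -0.64) and the corepressor TRIM28 (log2 -0.47) fell. None of the 14 was called with MET, and 0 had an unadjusted p under 0.05.

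Of 13 genes that convert or move glucocorticoids, 8 passed the filter, 5 fell and 2 rose with CJ28, before and after scaling, or 62.5% and 25% of the 8 against 37.1% and 19.9% of all genes tested. After scaling, 26.3% of all genes tested were lower and 29.3% higher. AKR1C3, a ketosteroid reductase, rose from 15.1 ± 1.24 to 26.2 ± 0.797 TPM (log2 0.79), with the reservation that AKR1C genes are similar in sequence and may share reads. CYP3A5 (log2 -0.67), SRD5A3 (log2 -0.64) and H6PD fell. With MET, SRD5A3 had the one unadjusted p under 0.05, and none was called.

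Other genes known to be induced by glucocorticoids elsewhere moved both ways. Of 38 on the list, 24 passed the filter, and 9 rose and 6 fell with CJ28, or 37.5% and 25%, where all genes tested had 19.9% and 37.1%. The median log2 change was 0.065 against -0.13 over all genes (0.21 against 0.014 after scaling). After scaling 11 were higher and 5 lower, with 29.3% and 26.3% in the table. CEBPB, a transcription factor of acute responses, had 3.90, 3.50, 3.93 and 4.26 TPM in VEH and 15.19, 16.52, 16.00 and 17.93 in CJ28 (log2 2.05, standard error 0.094). ANXA1, an inhibitor of inflammation, went from 5.56 ± 0.391 to 14.1 ± 0.258 TPM (log2 1.33), KLF15 from 1.63 ± 0.165 to 4.21 ± 0.314 TPM (log2 1.32) and DDIT4, an inhibitor of mTORC1, from 3.24 ± 0.0918 to 6.62 ± 0.786 TPM (log2 1.00). In the other direction FAM107A fell by 1.19 on the log2 scale, the metallothionein MT2A by 0.66 and glutamine synthetase, GLUL, by 0.57; these 3 were picked for display after their values were seen.

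**Figure D3:**
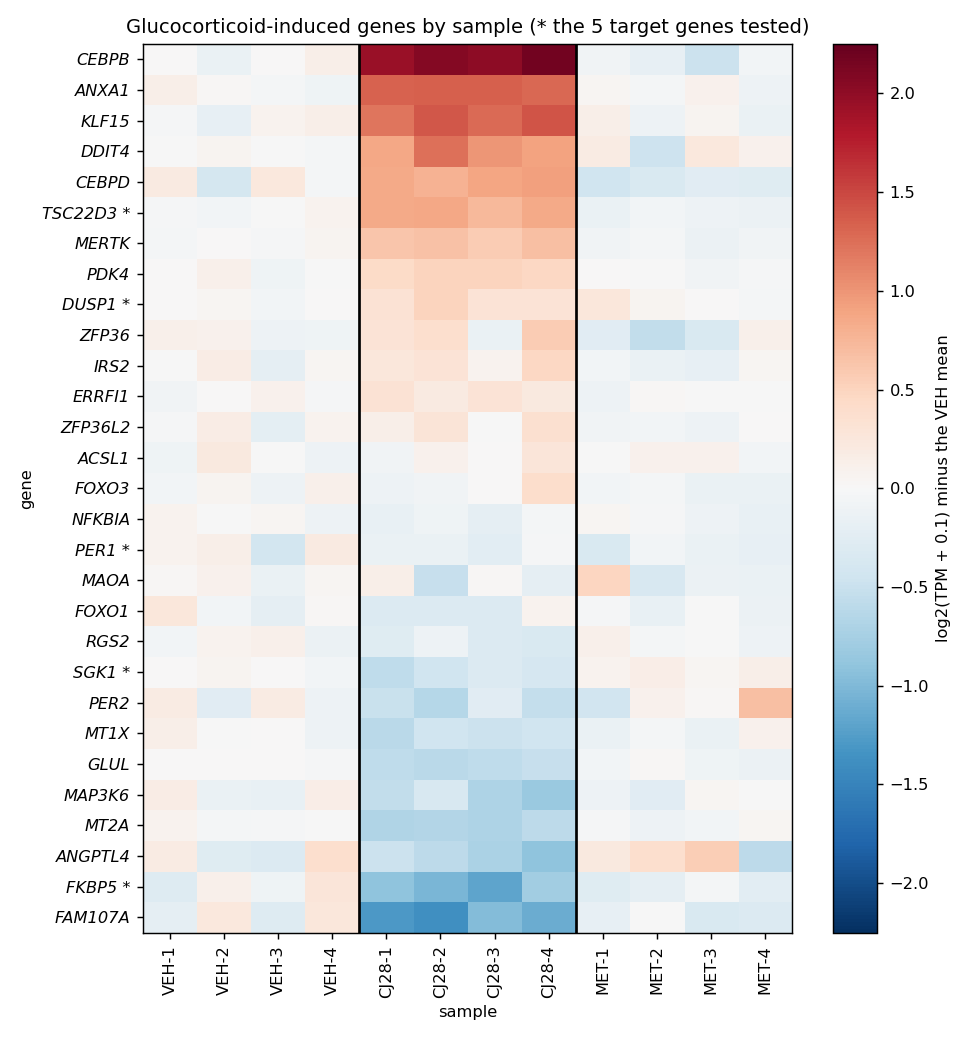
Log2(TPM + 0.1) minus the VEH mean of the gene (colour) in each of the 12 samples (columns) for 24 glucocorticoid-induced genes and the 5 tested target genes (starred), ordered by their mean in CJ28. CJ28 columns run from -1.38 (FAM107A) to 2.18 (CEBPB), MET columns from -0.59 to 0.68, and VEH columns from -0.42 to 0.39.

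With MET none of the 24 was called, and the median log2 change was -0.062 against -0.026 over all genes. The 2 with an unadjusted p under 0.05 were CEBPD, with 2.00 ± 0.404 TPM in VEH and 1.55 ± 0.0998 in MET, and MERTK, with 29.8 ± 0.916 and 28.1 ± 0.792 TPM. Both were below VEH on average, with log2 changes of -0.33 and -0.085.

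Genes that glucocorticoids repress gave little to measure, since 18 of 20 cytokine, chemokine, adhesion and protease genes lay below the filter. The 2 tested fell with CJ28, where 37.1% of all genes tested were lower, or 26.3% after scaling, and 2 genes are too few to describe the list. VCAM1, an adhesion molecule, went from 17.5 ± 0.239 to 11.7 ± 0.363 TPM (log2 -0.58), and IL1B, outside the naming rule, from 0.838 ± 0.335 to 0.158 ± 0.0532 TPM (log2 -1.83). With at most 0.20 TPM in CJ28, IL1B passed the filter only through VEH and MET. Of 12 targets of the mineralocorticoid receptor 6 passed, and 4 fell with CJ28, or 66.7% against 37.1% of all genes tested. After scaling 2 were lower and 1 higher, with 26.3% and 29.3% in the table. ATP1B1, a sodium pump subunit, fell from 12.7 ± 1.70 to 6.56 ± 0.364 TPM (log2 -0.93), TNS1 by 0.70 and NDRG2 by 0.34 on the log2 scale, and NDRG2 was not called after scaling (log2 -0.19, adjusted p = 0.110). The epithelial sodium channel genes SCNN1A, SCNN1B and SCNN1G had group means of at most 0.12 TPM. None of these 8 tested genes was called with MET, and 0 had an unadjusted p under 0.05.

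**Figure D4:**
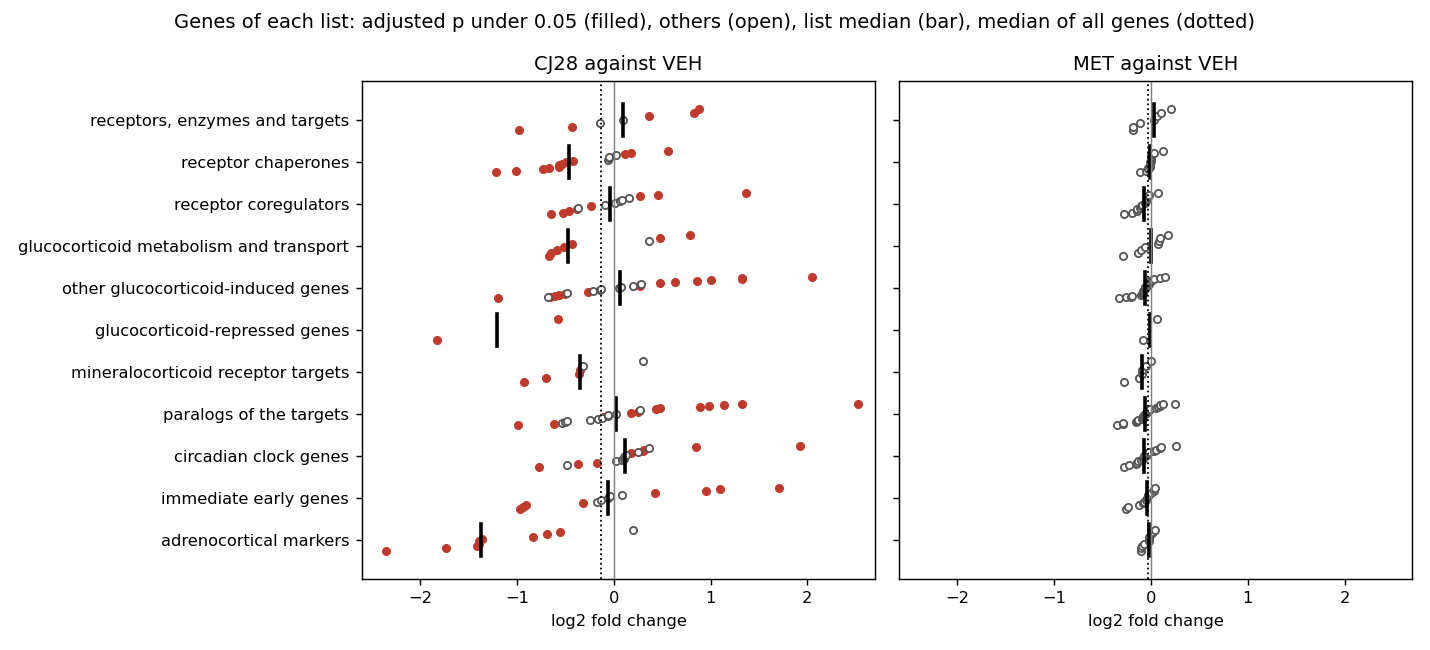
Log2 fold change (horizontal axis) of each gene that passed the filter, by list, with CJ28 (left) and MET (right) against VEH; filled points have an adjusted p under 0.05 in limma, open points do not, bars are list medians and the dotted line the median of all genes tested. The points spread from -2.35 to 2.52 with CJ28 and from -0.35 to 0.26 with MET, where none is filled.

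Relatives of the targets moved both ways. Of 27 paralogs 23 were tested, 10 rose and 3 fell with CJ28, or 43.5% and 13%, where all genes tested had 19.9% and 37.1%. The median log2 change was 0.025 against -0.13 over all genes, and after scaling 10 were higher and 2 lower, with 29.3% and 26.3% in the table. DUSP4, which dephosphorylates ERK in the nucleus, rose from 0.395 ± 0.0551 to 2.73 ± 0.157 TPM (log2 2.52), whereas DUSP6, the cytoplasmic ERK phosphatase, fell from 5.27 ± 0.0748 to 2.61 ± 0.272 TPM (log2 -0.99). All VEH and MET samples of DUSP4 were under 0.5 TPM, so it passed the filter only through CJ28. KLF15 rose and KLF10 fell (log2 -0.62). TSC22D4 rose (log2 0.48, adjusted p = 0.00195) and TSC22D1 fell as deposited (log2 -0.11, adjusted p = 0.0189) but turned to 0.045 after scaling (adjusted p = 0.365). SGK3 was not called (log2 -0.064, adjusted p = 0.686), nor were PER2 and PER3. With MET none of the 23 was called, and 0 had an unadjusted p under 0.05.

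The genes whose pattern over the 12 samples was most like that of FKBP5 included a partner of it. Likeness was the root mean square difference in log2(TPM + 0.1), each gene set to its VEH mean, over 13300 other genes with a mean of at least 1 TPM. HSP90AA1 was nearest (0.076), then ATP1B1 (0.100) and KCNMA1 (0.115), a potassium channel gene. The VEH samples stood in the same order in FKBP5 and HSP90AA1, which had 83.97 TPM in VEH-1, 94.11 in VEH-3, 104.46 in VEH-2 and 122.13 in VEH-4. For NR3C1, which was not called as deposited, the nearest were RBM6 (0.044), ATAD1 (0.050) and COPS5 (0.050).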

How the data were processed

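Total RNA of 12 NCI-H295R cultures was depleted of ribosomal RNA and made into stranded paired-end libraries. Per the labels, the authors ran Cutadapt (2.8), STAR (2.7.10b) on GRCh38 and RSEM (1.3.3). The TPM values were deposited by the authors in a single table of 12 sample columns, and the annotation release is not given in the sources used here. The coordinates are those of the table, where 99.92% of the IDs found in GENCODE 44 overlapped that gene. TPM keeps no depth, so no count model, detection limit or counting error was computed, and RSEM may divide reads between near-identical genes.

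Groups and replicate numbers were taken from the sample titles. Log2(TPM + 0.1) was fitted for all 12 samples without covariates in limma (3.58.1, R 4.3.3; lmFit, eBayes with trend) over 16815 genes, two-sided, with Benjamini-Hochberg adjustment over all of them, and the procedure was tested on simulated data. The adjusted p threshold was 0.05 and intervals are 95%. The members and the 11 further lists (194 genes, from general knowledge; BMAL1 is ARNTL in the table) were chosen with earlier results of these data known. Besides the 10 genes, the text names up to 4 genes per list, those with the largest log2 change with CJ28 among genes called, with a mean TPM of at least 1 and without overlap, any list gene called with MET, and the 3 genes nearest in pattern to NR3C1 and to FKBP5; other list genes were named after their values were seen. Alternatives were pseudocounts of 1 and 0.01, no filter, a filter at a mean of 1 TPM, scaling by median of ratios, a fit of each pair of groups alone, a block for the replicate number, and leaving out each sample. Motif windows used RefSeq starts and the GRCh38 sequence in Python (3.11.15), and figures matplotlib (3.10.9).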

Additional observations from a re-analysis of the deposited data

Results flagged for a closer look

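In 30 sets of 4 samples (10 genes in 3 groups), 2 had a sample far from the other 3 by Dixon's criterion, which chance alone gives in about 1 set of 20. TSC22D3 was 30.32 TPM in CJ28-3, below the other CJ28 samples, and without that sample its log2 change from VEH was 0.86. DUSP1 was 4.6 TPM in CJ28-2, above the other CJ28 samples, and without it the log2 change was 0.31 (adjusted p = 0.00497 in limma). Both samples lay on the same side of all VEH samples as the rest of their group.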

How the results depend on the processing

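The calls of FKBP5, TSC22D3, DUSP1, SGK1 and NR3C2 between CJ28 and VEH, and between CJ28 and MET, kept their direction and stayed called under every alternative in which the gene was tested (NR3C2 has a mean TPM under 1, so that filter left 6 of the genes). NR3C1 became called after median-of-ratios scaling in both comparisons, and the sign of PER1 between CJ28 and VEH turned to 0.0076 on the log2 scale; without VEH-3 PER1 was called at -0.28. Leaving out each sample in turn gave log2 changes for MET against VEH from -0.0011 to 0.067 in NR3C1 and from -0.0032 to 0.33 in NR3C2. In the target genes they ran from -0.29 to -0.097 in FKBP5, -0.14 to -0.092 in TSC22D3 and -0.32 to -0.12 in PER1. They ran from 0.0025 to 0.10 in DUSP1 and from 0.082 to 0.125 in SGK1, and none of these was called. For CJ28 against MET the range was -0.0089 to 0.084 in PER1. The number of genes called in the whole table with MET was 0 with a pseudocount of 1, 0 with 0.01 and 0 with a mean TPM of at least 1, where 902, 854 and 713 genes had an unadjusted p under 0.05 in limma. It was 5 without a filter and 1 to 2 when samples were left out (2 without MET-4 and 2 without VEH-4), none of them among the 10 genes. With the replicate block, 9546 genes were called between CJ28 and VEH, 1 between MET and VEH and 9361 between CJ28 and MET, with 5, 0 and 5 of the 7 genes. Samples of the same number did not deviate together (correlations of -0.12 to 0.039), so the number was not taken as a pairing. TPM does not allow a limit by read depth, which bears most on HSD11B1, HSD11B2 and KLF9.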

Other observations

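Clock genes moved both ways. Of 17 clock genes, all tested, 5 rose and 3 fell with CJ28, or 29.4% and 17.6%, where all genes tested had 19.9% and 37.1%. The median log2 change was 0.12 against -0.13 over all genes, and after scaling 8 were higher and 2 lower, with 29.3% and 26.3% in the table. NFIL3, a repressor of D-box genes, had 3.63, 4.65, 3.63 and 3.74 TPM in VEH, 14.67, 15.97, 14.44 and 15.28 in CJ28 and 4.37, 3.65, 3.98 and 3.44 in MET, a log2 change of 1.93 with CJ28. BHLHE41 rose from 5.40 ± 0.404 to 9.82 ± 1.21 TPM (log2 0.85), while TEF (log2 -0.77) and CLOCK (log2 -0.37, scaled -0.22) fell. None was called with MET, where CIART had the one unadjusted p under 0.05.

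Immediate early genes, which share inducers with DUSP1 and PER1, also moved both ways. Of 16, 13 were tested, and 4 rose and 4 fell with CJ28, before and after scaling, or 30.8% each way where all genes tested had 19.9% higher and 37.1% lower. After scaling, all genes tested had 29.3% higher and 26.3% lower, near the 30.8% here. ATF3, a stress-induced factor, rose from 2.32 ± 0.305 to 7.85 ± 1.48 TPM (log2 1.71), JUN from 4.71 ± 0.258 to 10.2 ± 0.877 TPM (log2 1.10) and the orphan receptor NR4A1 from 22.2 ± 1.44 to 43.2 ± 5.30 TPM (log2 0.95). BTG2 fell from 1.46 ± 0.105 to 0.698 ± 0.0492 TPM (log2 -0.97). FOS and EGR1 were not called, with log2 changes of -0.13 and -0.063. None was called with MET, and 0 had an unadjusted p under 0.05.

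Of the 11 adrenocortical markers, 10 were tested and 9 fell with CJ28, or 90% against 37.1% of all genes tested, among them CYP17A1 (log2 -2.35), SULT2A1 (log2 -1.42), STAR (log2 -1.39) and CYP11A1 (log2 -1.36), while none was called with MET.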
